A study of Ovis aries with 16 samples.

Results

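Testicular expression of 41 solute carrier genes is described here in 16 Merino male sheep. The genes were chosen by symbol, as all identifiers of the expression files to which the study's list of differentially expressed genes or its list of miRNA targets gives a symbol of SLC followed by a digit. They are 41 of 25197 genes in the files and of 1763 genes with a symbol in either list. For comparison, RefSeq gives such a symbol to 355 protein-coding sheep genes, and all 41 are among them. The other solute carrier genes were not analysed here, and the last 245 entries of the longer list could not be read. Of the 41 genes, 40 were named in the list of genes that differ by diet and 1, SLC22A17, only in the other list. The members were therefore selected on the contrast between diets, and their differences between diets are given as a description. How many met the study's criteria is counted, but no p is given for the contrast, and these counts support nothing about the genes.

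The study asked how nutrition changes the adult testis. The high diet group (well-fed, 8 male sheep) was fed to gain 10% of body mass during 65 days and the low diet group (underfed, 8 male sheep) to lose 10% in the same time. Every library came from the right testis of 1 sheep, in which tissue from the top, middle and bottom was mixed, and no other treatment, genotype or age difference is given. Values are CPM, the reads on a gene as a share of all reads on genes, and take no account of gene length, so levels are compared between sheep and not between genes.

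Solute carriers are membrane proteins that move amino acids, sugars, ions, vitamins, nucleosides and lipids across the plasma membrane or across the membranes of mitochondria and other organelles. In the testis, Sertoli cells support the germ cells behind the blood-testis barrier, so that much of what germ cells use has to pass through transporters. Some carriers belong to the germ line, such as the sperm sodium/proton exchanger and an ADP/ATP carrier of germ cell mitochondria, whereas others are found in most cells.

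Library totals ranged from 7646547 to 18230076 reads. All 41 genes had CPM above 5 in at least 8 libraries, the filter for testing, which 11148 genes passed, and the smallest number of reads behind any value was 6. Summed CPM of the spermatid and sperm markers (7 of 17 had an identifier, and none was at 0) was between 2576 and 5533 in well-fed sheep and between 1445 and 3685 in underfed sheep. That of the Sertoli markers (6 of 11, none at 0) was between 121 and 191 and between 228 and 568. MYH11 and DES, markers of peritubular and smooth muscle cells (2 of 5, none at 0), summed to between 46.6 and 255 and between 119 and 515. The spermatocyte markers (4 of 6, none at 0) summed to between 390 and 1582 and between 131 and 898. A marker has an identifier here only where the same 2 lists give it a symbol, so the differences of these sums between diets were fixed by that selection too. In whole tissue, fewer cells of a type and less RNA per cell cannot be told apart.

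Most of the solute carrier genes were higher in underfed sheep. On the log2(CPM + 1) scale, after scaling by TMM factors, 28 of the 41 were higher in the low diet group and 13 lower, and the median difference was 0.74, against 0.01 over all genes tested. Both criteria of the study are a Benjamini-Hochberg adjusted p under 0.1 and a ratio of mean CPM above 1.5. With limma in place of the study's edgeR test, 35 of the 41 met both. Of these, 27 were higher and 8 lower in underfed sheep. Over all genes tested the share was 16.2%, with 10.8% higher and 5.42% lower. The ratio was taken from CPM not divided by TMM factors, whereas the adjusted p came from the scaled values. With the adjusted p alone, 40 of the 41 genes passed, 27 higher and 13 lower. Of all 11148 genes, 2396 then passed, 1215 higher and 1181 lower. The larger number of higher genes over all genes tested thus came with the ratio criterion. With library totals in place of TMM factors, 36 of the 41 genes (28 higher and 8 lower) and 2018 of all 11148 genes (1563 higher and 455 lower) met both criteria, in place of 1808 (1204 higher and 604 lower). The lists were drawn up on this contrast, so nothing is read from the difference between these shares. The smallest difference was 0.58 in size in either direction.

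Individual sheep overlapped between the diets for nearly all of these genes. Only SLC14A1, a urea transporter, had no overlap, 1 of 41 genes against 0.798% of all genes tested. The count of 35 genes was between 21 and 37 when each sheep was left out in turn. It was lowest without low diet replicate 6, where 692 of all 11148 genes met them, and next lowest, at 25, without high diet replicate 5, where 836 did. A set of 20 genes met both criteria in all 16 of these fits, and 4 genes (SLC25A31, SLC35A5, SLC35B3 and SLC44A5) met them in none. In the fit of all sheep these 4 genes met the adjusted p criterion and missed only the ratio, at 1.34 to 1.39 in favour of well-fed sheep. The corresponding shares of all genes tested were not computed, so nothing is read from these 2 counts.

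**Figure D1:**
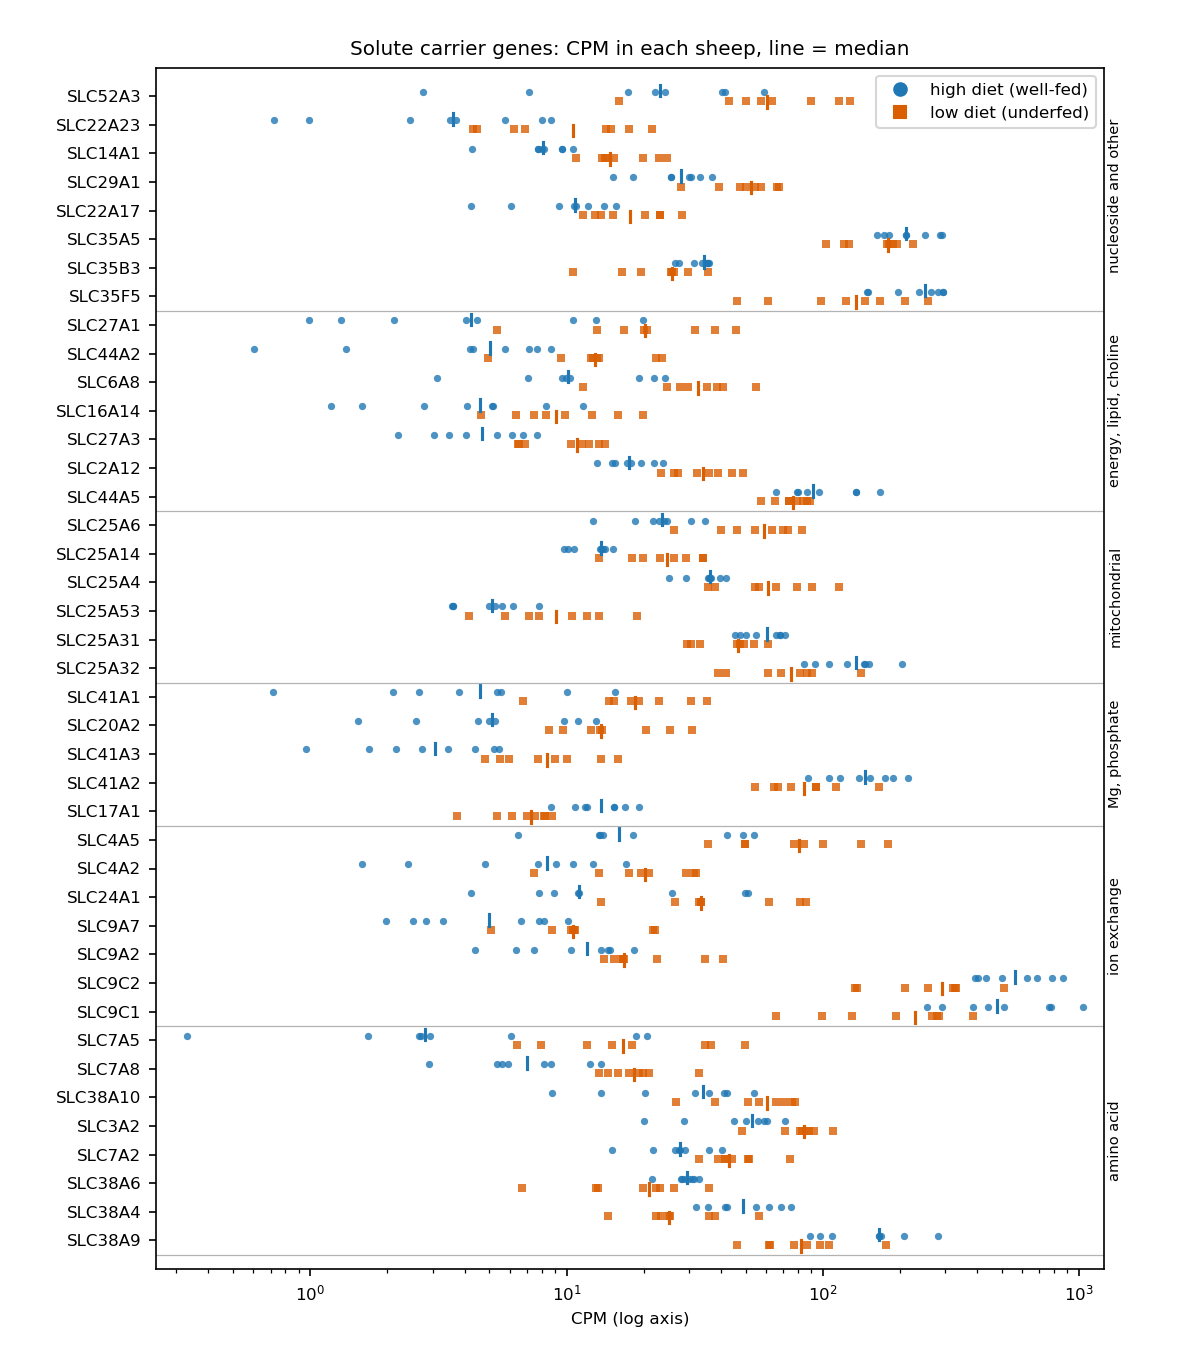
CPM (horizontal, log axis) of the 41 solute carrier genes (vertical, by class of transported substance) in each well-fed (blue circles) and underfed (orange squares) male sheep, with short lines at the medians. The symbols of both diets overlap for every gene but SLC14A1.

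The genes with the largest positive differences transport different substances. SLC7A5 (ENSOARG00000012129), the light chain of a carrier of large neutral amino acids, had a lowest, median and highest CPM of 0.329, 2.81 and 20.5 in well-fed sheep and of 6.41, 16.6 and 49.7 in underfed sheep. The difference was 1.75 ± 0.53 (log2, SE, n = 8 per diet), and 3 underfed sheep were above all well-fed sheep while 6 well-fed sheep were below all underfed sheep. SLC27A1 (ENSOARG00000016498), a fatty acid transport protein, had CPM of 0.987, 4.25 and 19.95 in well-fed and 5.35, 20.3 and 45.8 in underfed sheep, a difference of 1.74 ± 0.47, with 5 underfed sheep above all well-fed sheep. The spread within each diet was wide for both genes, with SDs of the log2 values of 1.35 and 1.19 in well-fed sheep and 0.99 and 0.89 in underfed sheep.

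SLC41A1 (ENSOARG00000004441), a magnesium transporter of the plasma membrane, had CPM of 0.713, 4.58 and 15.5 in well-fed sheep and of 6.76, 18.5 and 35.4 in underfed sheep, a difference of 1.72 ± 0.38. SLC4A5 (ENSOARG00000012369), a sodium bicarbonate cotransporter, had CPM of 6.47, 15.97 and 53.8 against 35.6, 80.7 and 179, a difference of 1.70 ± 0.39. For both genes 5 underfed sheep were above all well-fed sheep. SLC52A3 (ENSOARG00000018982), a riboflavin transporter, had CPM of 2.74, 23.2 and 59.1 against 16.1, 60.3 and 127, a difference of 1.40 ± 0.47. It overlapped more, with 4 underfed sheep above all well-fed sheep.

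The largest negative differences were those of a pair of sodium/proton exchangers. SLC9C1 (ENSOARG00000019276), the exchanger of the sperm tail that sperm need to swim, had a lowest, median and highest CPM of 255, 476 and 1035 in well-fed sheep and of 65.8, 230 and 385 in underfed sheep. Its difference was -1.61 ± 0.38, and 5 well-fed sheep were above all underfed sheep. SLC9C2 (ENSOARG00000011943), its closest relative, had CPM of 393, 563 and 867 against 133, 291 and 509, a difference of -1.31 ± 0.29, and 7 underfed sheep were below all well-fed sheep. Each library held at least 966 reads of SLC9C1 and 1433 of SLC9C2.

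SLC17A1 (ENSOARG00000002375), a sodium-dependent phosphate and organic anion transporter best known from the kidney, had CPM of 8.72, 13.6 and 19.2 in well-fed and of 3.74, 7.26 and 8.78 in underfed sheep. The difference was -1.06 ± 0.21, and only 1 sheep of each diet lay within the range of the other. SLC35F5 (ENSOARG00000011685), a little-studied member of the family of nucleotide sugar transporters, had CPM of 148, 251 and 295 against 46.2, 135 and 258, a difference of -1.06 ± 0.31. SLC38A9 (ENSOARG00000007689), the lysosomal amino acid transporter that reports arginine to the growth regulator mTORC1, had CPM of 89.0, 165 and 280 against 46.4, 81.9 and 176, a difference of -1.02 ± 0.30. For the latter 2 genes, 5 underfed sheep were below all well-fed sheep.

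Of the 8 amino acid transporters, 5 were higher in underfed sheep, all past both criteria, and 3 were lower, 2 of them past both. The heavy chain SLC3A2, which brings the light chains SLC7A5 and SLC7A8 to the plasma membrane, had a smaller difference (0.64 ± 0.20) than SLC7A5 and than SLC7A8 (1.12 ± 0.23). CPM of SLC3A2 was 20.1, 53.0 and 71.1 in well-fed and 48.4, 84.5 and 109 in underfed sheep, and 7 underfed sheep were above all well-fed sheep. SLC7A8 had CPM of 2.91, 7.01 and 13.7 against 13.3, 18.3 and 32.9, with 1 sheep of each diet within the range of the other. SLC7A2, a carrier of arginine and lysine, had a difference of 0.58, and SLC38A10, a relative of the sodium-coupled neutral amino acid transporters, one of 0.83. In the same family, SLC38A4 (-0.96), SLC38A6 (-0.80, ratio of mean CPM of 1.44 in favour of well-fed sheep) and SLC38A9 were lower in underfed sheep. The SLC38 genes were therefore not of one direction.

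Of the 7 genes for exchange of protons, bicarbonate and other ions, 5 were higher in underfed sheep and 2 lower, all past both criteria. The lower genes were SLC9C1 and SLC9C2, and the higher genes included their relatives SLC9A2 (0.78), which works at the plasma membrane, and SLC9A7 (0.98), which works at the trans-Golgi network. SLC4A2, a chloride/bicarbonate exchanger, had CPM of 1.59, 8.41 and 17.0 in well-fed sheep and of 7.46, 20.2 and 31.9 in underfed sheep, a difference of 1.27 ± 0.35, with 6 underfed sheep above all well-fed sheep. SLC24A1, a sodium/calcium-potassium exchanger, had a difference of 1.16 and was the least even of the class, with a standard error of 0.45.

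The 3 magnesium transporters of the SLC41 family were split. SLC41A1 and SLC41A3 were higher in underfed sheep and SLC41A2 was lower, all past both criteria. SLC41A3, which is placed in mitochondria, had CPM of 0.962, 3.08 and 5.44 against 4.81, 8.36 and 15.9, a difference of 1.13 ± 0.26, with 7 underfed sheep above all well-fed sheep. SLC41A2 had CPM of 87.2, 146 and 214 against 54.1, 84.5 and 166, a difference of -0.89 ± 0.26, with 4 underfed sheep below all well-fed sheep. SLC20A2, a sodium phosphate cotransporter, had a difference of 1.19.

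**Figure D2:**
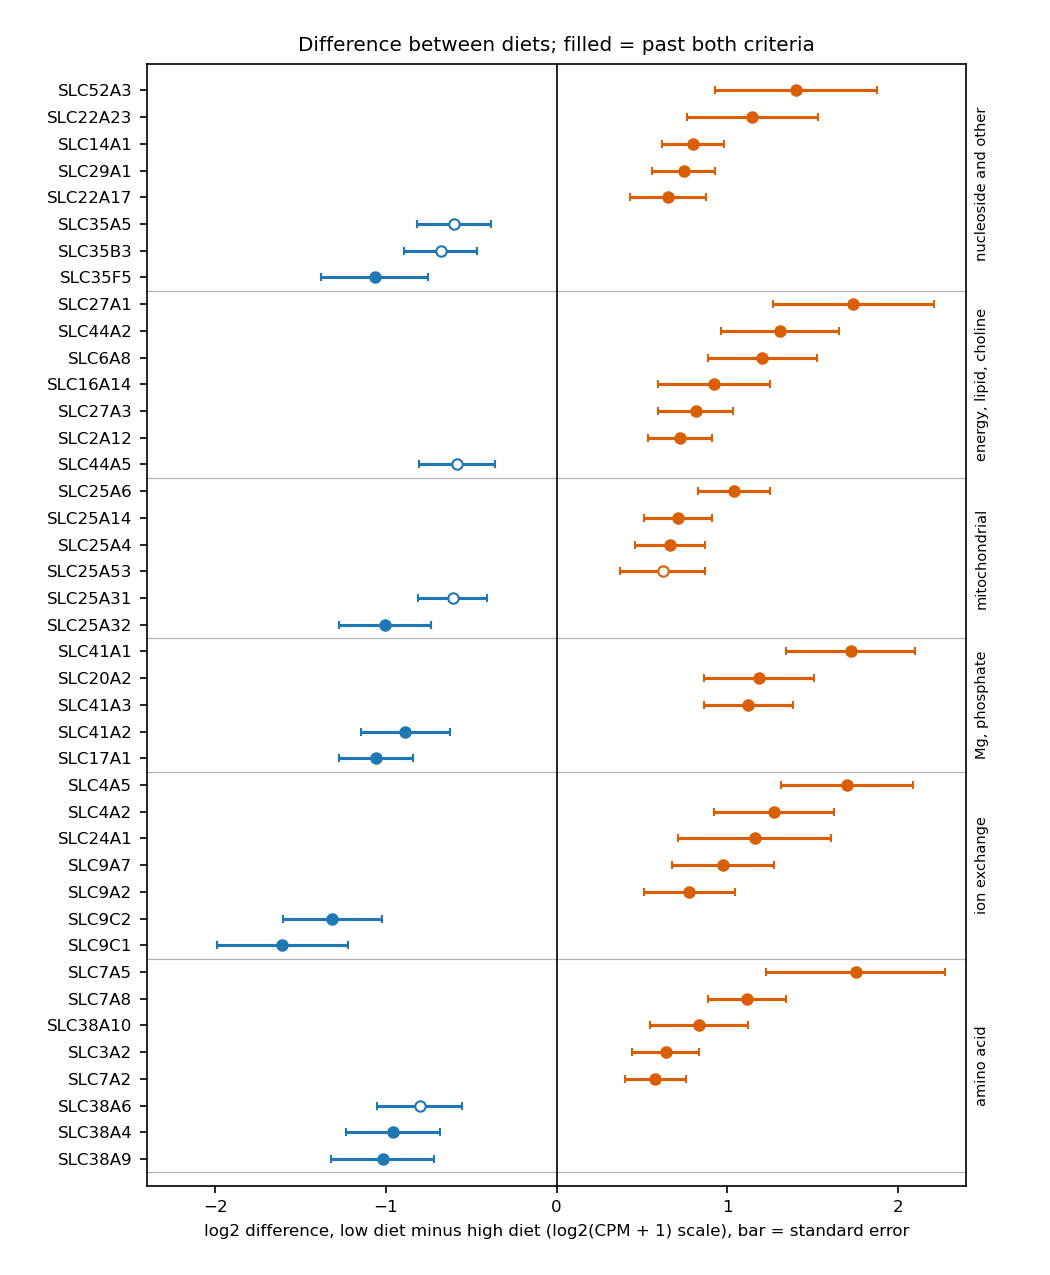
Difference between diets (horizontal, low diet minus high diet on the log2(CPM + 1) scale, bars of 1 standard error, n = 8 per diet) for each gene (vertical, by class); filled points met both criteria. The points run from -1.61 (SLC9C1) to 1.75 (SLC7A5), and the choice of genes leaves none near 0.

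Of the 6 mitochondrial carriers, 4 were higher in underfed sheep, 3 of them past both criteria, and 2 were lower, 1 of them past both. SLC25A4, SLC25A6 and SLC25A31 encode ADP/ATP carriers, which exchange the ATP made in mitochondria for ADP, and SLC25A31 is the form of the germ line. SLC25A6 had CPM of 12.7, 23.5 and 34.6 in well-fed and of 26.2, 58.9 and 82.9 in underfed sheep, a difference of 1.04 ± 0.21, with 7 underfed sheep above all well-fed sheep. SLC25A4 had CPM of 25.01, 36.2 and 42.0 against 35.7, 61.0 and 116, a difference of 0.67 ± 0.20, with 6 underfed sheep above all well-fed sheep. The germ line form was on the other side, with CPM of 45.3, 60.3 and 71.4 against 29.6, 46.8 and 60.8 and a difference of -0.61 ± 0.20. Its ratio of mean CPM, 1.34 in favour of well-fed sheep, did not meet the criterion. These genes are similar in sequence, and how reads that match several genes were counted is not given in the sources used here.

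Of the other mitochondrial carriers, SLC25A14 (0.71) was higher in underfed sheep and SLC25A32 (-1.004), which carries folate or flavin, was lower, both past both criteria. SLC25A53, with no known substrate, had a difference of 0.62 and a ratio of 1.96, and was the only one of the 41 genes not past the adjusted p criterion. The SD of the log2 values was larger in underfed than in well-fed sheep for all 6 mitochondrial carriers, for 17 of the 41 genes, these included, and for 45.4% of all genes tested. The ratio of the SDs was 1.08 for SLC25A31 and 1.09 for SLC25A32, below that of several other genes such as SLC38A6 (2.66) and SLC35B3 (1.83). On these TMM-scaled values it was largest of the 41 for SLC25A4, at 4.64, with an SD of 0.12 among well-fed sheep and 0.55 among underfed sheep. Its lowest CPM among underfed sheep, 35.7, was near the well-fed median, whereas low diet replicate 7 reached 116. The SDs, their ratios and the order of these hold for the TMM scaling only, by which the CPM printed here was not divided. These differences in spread were seen in the data and were not tested.

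Of the 7 genes for energy substrates, lipids and choline, 6 were higher in underfed sheep, all past both criteria. SLC6A8, the creatine transporter, had a difference of 1.21, SLC16A14, of the monocarboxylate family, one of 0.92 and SLC2A12, a glucose transporter, one of 0.72. SLC27A3, the other fatty acid transport protein, had CPM of 2.19, 4.69 and 7.63 against 6.44, 11.0 and 14.1, a difference of 0.82 ± 0.22, with 5 underfed sheep above all well-fed sheep. The choline transporter-like genes were split, with SLC44A2 higher (CPM of 0.603, 5.01 and 8.66 in well-fed and 4.91, 12.96 and 23.6 in underfed sheep, a difference of 1.31 ± 0.34) and SLC44A5 lower. SLC44A5 had CPM of 65.6, 91.6 and 167 against 57.1, 76.8 and 89.3, a difference of -0.58 ± 0.22, and its ratio of 1.39 in favour of well-fed sheep did not meet the criterion.

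Among the 8 genes for nucleosides, nucleotide sugars, vitamins, urea and organic ions, 5 were higher and 3 lower in underfed sheep. SLC14A1 (ENSOARG00000002395) had CPM of 4.28, 8.08 and 10.6 in well-fed and of 10.9, 14.8 and 24.7 in underfed sheep, so that the lowest underfed sheep lay just above the highest well-fed sheep, and the difference was 0.80 ± 0.18. SLC29A1, an equilibrative nucleoside transporter, had a difference of 0.74, with 7 underfed sheep above all well-fed sheep. SLC22A17 (0.65) and SLC22A23 (1.15) belong to the family of organic ion transporters and were higher in underfed sheep. All 3 lower genes were of the SLC35 family: SLC35F5, SLC35B3 (-0.68), which carries the sulfate donor PAPS into the Golgi, and SLC35A5 (-0.60). The last 2 had ratios of 1.38 and 1.34 in favour of well-fed sheep, below the criterion.

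The same few sheep held the extreme values of many of the solute carrier genes. Of the 28 genes that were higher in underfed sheep, high diet replicate 8 was the lowest well-fed sheep for 23, low diet replicate 1 the lowest underfed sheep for 17, and low diet replicate 6 the highest for 13. Of the 13 genes that were lower, low diet replicate 1 was the highest underfed sheep for 12, low diet replicate 6 the lowest for 9 and high diet replicate 8 the highest well-fed sheep for 8. These counts rest on CPM not divided by TMM factors. High diet replicate 8 had the smallest factor, 0.739, so its unscaled values lie below its scaled ones. Whether the counts hold on scaled values was not tested. The corresponding counts over all genes tested were not computed, so the counts do not set the solute carrier genes apart.

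Variation between sheep of 1 diet was examined with the diet means removed, so that the contrast that chose the genes played no part in the values. Correlations are Pearson's r of the log2 values over the 16 sheep, whose values share a library. Between genes that were both higher in underfed sheep, r was positive for 319 of 378 pairs, with a median of 0.54, and between genes that were both lower for 78 of 78 pairs, with a median of 0.76. Between a higher and a lower gene, r was positive for 26 of 364 pairs, with a median of -0.65. Among all genes past both criteria, the corresponding shares were 87.0%, 97.8% and 7.96%, with medians of 0.58, 0.79 and -0.58.

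**Figure D3:**
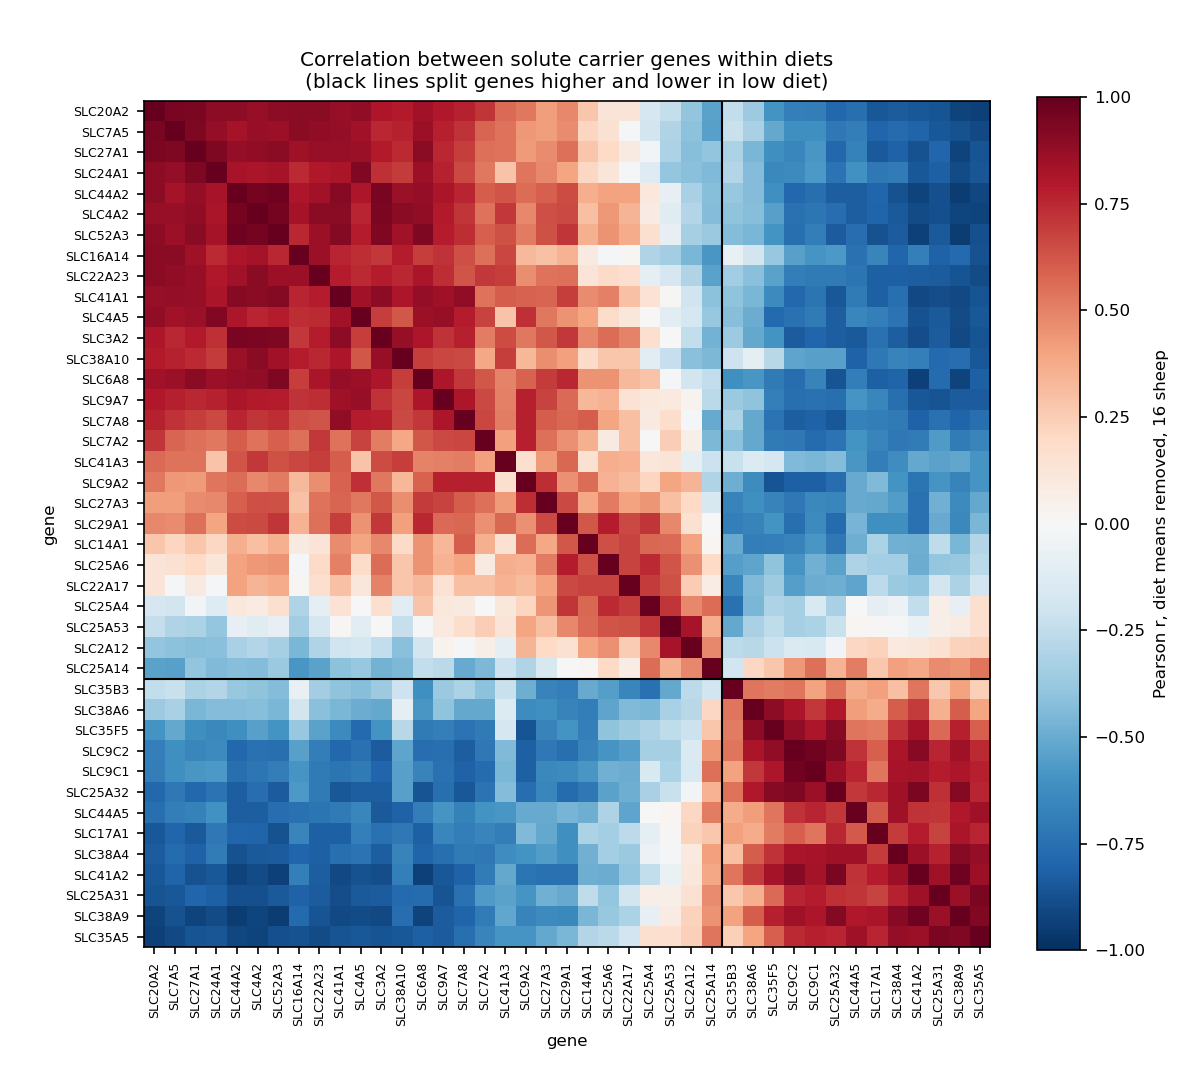
Pearson's r (colour) between the solute carrier genes (both axes) over 16 sheep with the diet means removed, with black lines between the 28 genes higher and the 13 lower in underfed sheep. The 2 diagonal blocks are mostly red and the off-diagonal blocks mostly blue, except for a few genes at the edge of the first block that include SLC25A4, SLC25A53, SLC2A12 and SLC25A14.

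A single component described most of this variation. The first principal component held 72.7% of the within-diet variance of the 41 genes and 57.9% of that of all genes tested, and the scores of the sheep on both had an r of 0.95 in size. With the component of all genes, r was positive for 24 of the 28 genes higher in underfed sheep (median 0.82) and negative for all 13 lower genes (median -0.76). Among all genes past both criteria it was positive for 89.6% of the higher genes (median 0.79) and for 1.16% of the lower genes (median -0.76). SLC20A2 (0.97), SLC7A5 (0.95) and SLC27A1 (0.93) were at one end and SLC35A5 (-0.95), SLC38A9 (-0.93) and SLC25A31 (-0.89) at the other.

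The within-diet variation of some genes did not follow their difference between diets. Of the 28 higher genes, r with the component was negative for SLC25A14 (-0.62), SLC2A12 (-0.46), SLC25A53 (-0.34) and SLC25A4 (-0.20). It was near 0 for SLC22A17 (0.08), SLC25A6 (0.15) and SLC14A1 (0.20), and of the lower genes for SLC35B3 (-0.20). These 8 genes include the 4 mitochondrial carriers that were higher in underfed sheep, whereas the 2 that were lower, SLC25A31 (-0.89) and SLC25A32 (-0.75), followed their difference. This grouping was seen in the data and was not tested.

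**Figure D4:**
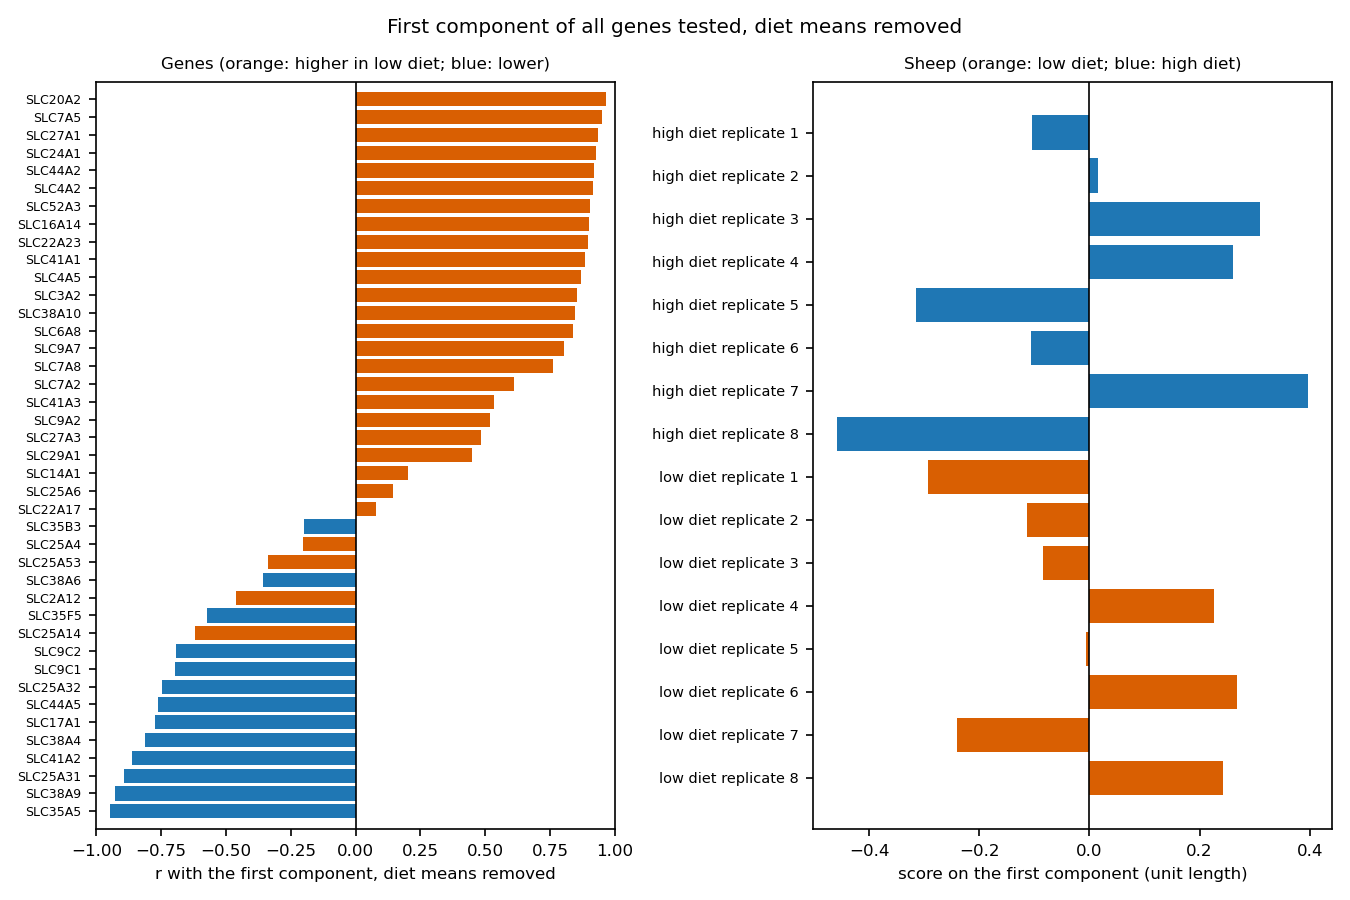
Left, Pearson's r (horizontal) of each gene (vertical) with the first component of all genes tested, diet means removed, with genes higher in underfed sheep in orange and genes lower in blue. Right, the score (horizontal, scaled to unit length) of each sheep (vertical), in which high diet replicate 8 is the lowest and high diet replicate 7 the highest.

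Some of the cell type markers moved with the same component, and the part of the markers in the results on the solute carrier genes was not tested. The component was computed from all genes tested, DDX4 among them. Its median r was 0.79 with the higher and -0.76 with the lower genes past both criteria. A large r with it is therefore common, and the tests below do not set the markers apart from other genes. Over the 16 sheep with diet means removed, the log2 sum of the spermatid and sperm markers had r = -0.89 with it (rho = -0.87, permutation tests within diets, p = 1e-05, the smallest these can give, and p = 5e-05, adjusted p = 0.0001 and 0.0005 over 10 relations, and r = -0.86 with the 2 most distant sheep left out). These 2 sheep lay farthest from the median of the measure named first over all 16 sheep, before the diet means were removed. They need not be the most distant sheep within a diet. The sum of MYH11 and DES had r = 0.89 (rho = 0.81, permutation p = 2e-05 and 0.00055, adjusted p = 0.0001 and 0.0027, and r = 0.83 without 2 sheep). DDX4, a germ cell marker, had r = -0.75 (rho = -0.77, permutation p = 0.0014 for both, adjusted p = 0.0048 for both, and r = -0.68 without 2 sheep). The TMM factor had r = 0.66 (rho = 0.45, permutation p = 0.0068 and 0.096, adjusted p = 0.017 and 0.19), which was 0.29 without high diet replicates 8 and 5 and so rests on those sheep. The other 6 relations did not pass (adjusted permutation p of at least 0.19): the library total (r = -0.26, rho = -0.14), testis weight (r = -0.14, rho = -0.29), the spermatocyte markers (r = -0.25, rho = -0.48), the leukocyte marker PTPRC (r = 0.43, rho = 0.38), the Leydig marker STAR (r = -0.18, rho = -0.23) and the Sertoli markers (r = 0.32, rho = 0.39). With the 2 most distant sheep left out, r for these 6 was -0.17, -0.26, -0.44, 0.50, -0.13 and 0.66, in the same order. For the Sertoli markers r was 0.86 among well-fed sheep (exact permutation p = 0.0058, n = 8) and 0.04 among underfed sheep (exact permutation p = 0.93, n = 8). For PTPRC it was 0.74 (exact permutation p = 0.026) and 0.13 (exact permutation p = 0.74). These differences between diets were not tested.

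Of the pairs of genes with a known partnership or a shared subfamily, 13 were compared in the same way. They were chosen with earlier results of these data known. Values are r with the diet means removed, with permutation tests within diets adjusted over these 13 pairs only. Other pairs of a shared family were not tested. Some of them were weak, such as SLC22A17 with SLC22A23 (r = 0.17) and SLC35A5 with SLC35B3 (r = 0.24). Others were strong, such as SLC38A4 with SLC38A9 (r = 0.91) and SLC9A2 with SLC9A7 (r = 0.77). The strongest of the 13 was that of the sperm exchanger and its relative. SLC9C1 and SLC9C2 had r = 0.96 (rho = 0.93, adjusted permutation p = 6.5e-05 and 0.00039, r = 0.95 with the 2 most distant sheep left out), with 0.96 among well-fed and 0.97 among underfed sheep (exact permutation p = 0.0002 and 9.9e-05, n = 8 each). Of all genes tested, 0.34% had a higher r with SLC9C1 than SLC9C2 did, and with the first component removed as well the r was 0.93.

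The ADP/ATP carriers of most cells varied together as well. SLC25A4 and SLC25A6 had r = 0.74 (rho = 0.76, adjusted permutation p = 0.006 and 0.0074, r = 0.66 without 2 sheep), and r was 0.80 with the first component removed. It was 0.84 among underfed sheep (exact permutation p = 0.0089, n = 8) and 0.47 among well-fed sheep (exact permutation p = 0.24, n = 8), and the difference between diets was not tested. Of all genes tested, 1.35% had a higher r with SLC25A4 than SLC25A6 did. The germ line form did not pass the test with either, with r = 0.06 and rho = -0.24 for SLC25A4 (adjusted permutation p = 0.83 and 0.40) and r = -0.38 and rho = -0.35 for SLC25A6 (adjusted permutation p = 0.18 and 0.25). The value for SLC25A4 and SLC25A31 was -0.11 without low diet replicate 7 and -0.03 without low diet replicate 8.

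The heavy chain and its light chains varied together within diets, as many other genes did with each of them. SLC3A2 had r = 0.76 with SLC7A5 (rho = 0.70, adjusted permutation p = 0.0041 and 0.014, r = 0.65 without 2 sheep), and 15.9% of all genes tested had a higher r with SLC3A2 than SLC7A5 did. With SLC7A8 it had r = 0.78 (rho = 0.52, adjusted permutation p = 0.0041 and 0.08, r = 0.70 without 2 sheep), so that the relation passed on values but not on ranks. The same held for SLC7A5 and SLC7A8, with r = 0.72 (rho = 0.37, adjusted permutation p = 0.0058 and 0.24, r = 0.70 without 2 sheep). With the first component removed, the 3 values of r were -0.32, 0.39 and 0.01.

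The split between the magnesium transporters was present within diets as well, as for most pairs of a higher and a lower gene. SLC41A1 and SLC41A2 had r = -0.90 (rho = -0.81, adjusted permutation p = 6.5e-05 and 0.0036, r = -0.84 without 2 sheep), with -0.94 among well-fed and -0.86 among underfed sheep (exact permutation p = 0.00077 and 0.0096, n = 8 each). With the first component removed, r was -0.59. Of all genes tested, 98.8% had a higher r with SLC41A1 than SLC41A2 did. SLC41A1 and SLC41A3 had r = 0.60 (rho = 0.58, adjusted permutation p = 0.028 and 0.052, r = 0.53 without 2 sheep). That pair no longer passed without high diet replicate 3 (r = 0.55, adjusted permutation p = 0.060), high diet replicate 7 (r = 0.54, p = 0.068) or low diet replicate 6 (r = 0.55, p = 0.081). SLC41A2 and SLC41A3 had r = -0.51 (rho = -0.42, adjusted permutation p = 0.071 and 0.19), and passed without high diet replicate 4 (r = -0.60, adjusted permutation p = 0.033), low diet replicate 7 (r = -0.58, p = 0.041) or low diet replicate 8 (r = -0.56, p = 0.043).

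The split between the choline transporter-like genes was likewise present within diets, as for most pairs of a higher and a lower gene. SLC44A2 and SLC44A5 had r = -0.82 (rho = -0.67, adjusted permutation p = 0.00074 and 0.02). With the 2 most distant sheep left out, high diet replicates 8 and 5, r was -0.55, and with the first component removed it was -0.49. Of all genes tested, 90.5% had a higher r with SLC44A2 than SLC44A5 did. The bicarbonate transporters SLC4A2 and SLC4A5 had r = 0.76 (rho = 0.74, adjusted permutation p = 0.0041 and 0.01, r = 0.71 without 2 sheep), and -0.18 with the first component removed. The fatty acid transport proteins SLC27A1 and SLC27A3 did not pass, with r = 0.48 (rho = 0.32, adjusted permutation p = 0.091 and 0.27), except without low diet replicate 7 (r = 0.58, adjusted permutation p = 0.041) or low diet replicate 8 (r = 0.57, p = 0.043).

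**Figure D5:**
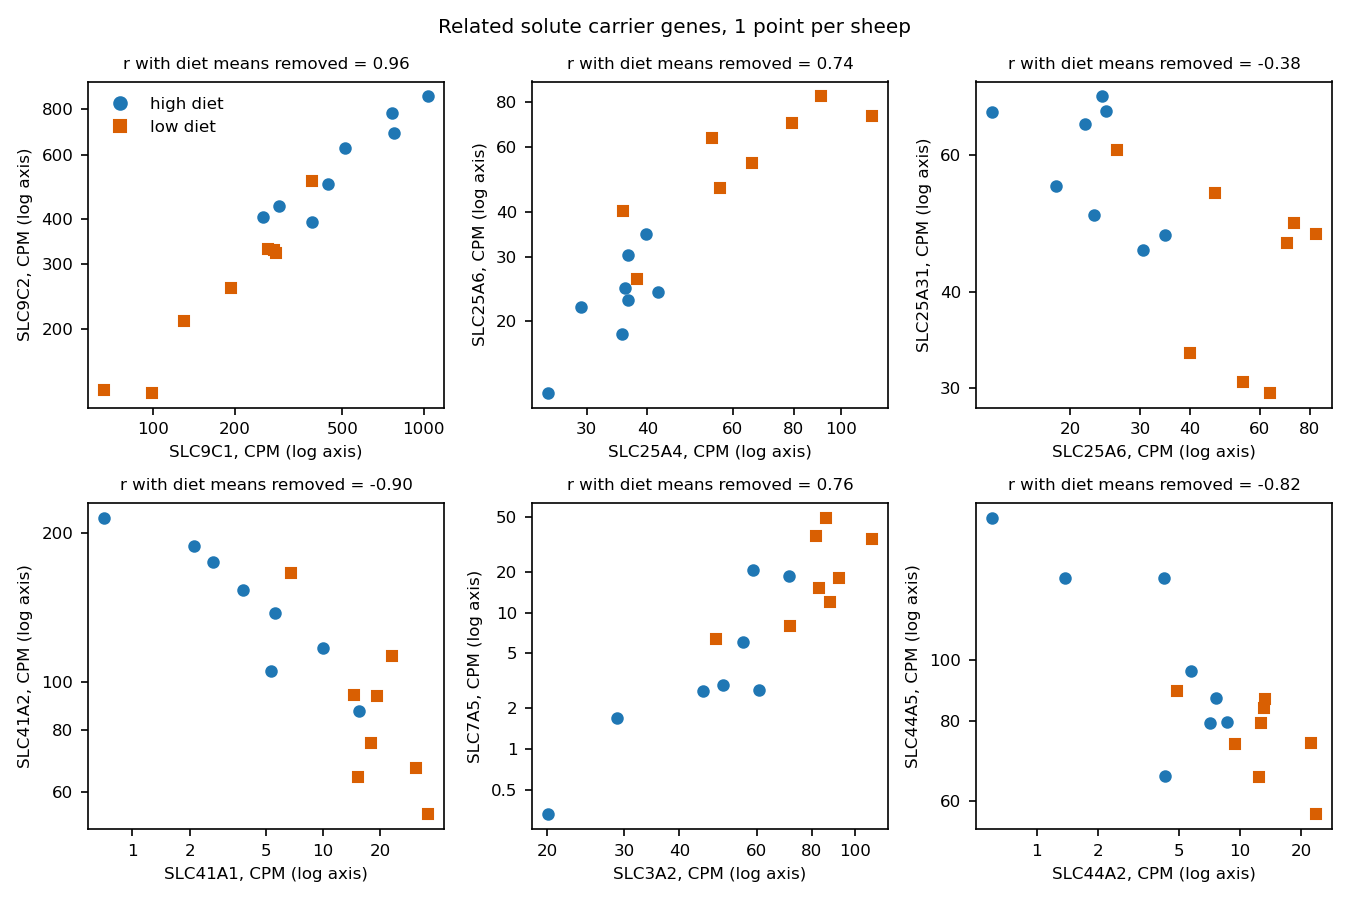
CPM of 2 related genes (both axes logarithmic) in each well-fed (blue circles) and underfed (orange squares) male sheep, for 6 pairs. Both diets lie on 1 rising line for SLC9C1 and SLC9C2 (r = 0.96 with the diet means removed), and on a falling one for SLC41A1 and SLC41A2 (r = -0.90).

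Among the 1762 other genes with a symbol, those most like 2 of the carriers of the germ line within diets were listed. SLC25A31 was most like CDKN3 (r = 0.97), C9orf40 (0.97) and NSUN7 (0.96), and SLC9C1 was most like DZIP3 (0.99), KIAA1524 (0.98) and LRRIQ3 (0.98), each over 16 sheep with the diet means removed. These lists hold only genes with a symbol.

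The relation of the genes to the condition of the testis was tested with diet in the model, over all genes tested. None of the 41 genes was related to the weight of the testis, its number of sperm, the diameter of its tubules, the volume of its seminiferous epithelium, the change in scrotal circumference or the number of apoptotic germ cells in a tubule (limma, adjusted p under 0.1). The share of all genes called was 0.00897% for testis weight, which is 1 gene, and 0.0% for each of the other 5 traits. With edgeR on the recovered reads the count was also 0 for every trait. At an unadjusted p under 0.05, 4 of the 41 genes were related to testis weight, against 2.4% of all genes tested. For sperm number it was 1 of the 41 genes, against 164 of all 11148. None of the 41 was under this limit for the other traits. Over all genes there were 29 for tubule diameter, 87 for epithelium volume, 23 for scrotal change and 113 for apoptotic germ cells. The 4 for testis weight became 0 without low diet replicate 3, where 181 of all 11148 genes were under this limit. They became 16 without low diet replicate 8, where 2003 of all genes were, against 267 in all sheep.

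Those 4 genes are named for their sign. Here the 2 most distant sheep were those farthest from the median testis weight, low diet replicates 2 and 3 for all 4 genes. SLC17A1 had a positive relation to testis weight (r = 0.56 with the diet means removed, rho = 0.61, permutation p = 0.024 and 0.020, limma adjusted p = 1.00, and r = 0.63 with the 2 most distant sheep left out). The adenine nucleotide carrier SLC25A4 had r = -0.59 (rho = -0.58, permutation p = 0.051 and 0.026, r = -0.50 without 2 sheep). The nucleoside transporter SLC29A1 had r = -0.57 (rho = -0.64, permutation p = 0.038 and 0.012, r = -0.58 without 2 sheep) and SLC41A3 r = -0.55 (rho = -0.58, permutation p = 0.029 and 0.027, r = -0.58 without 2 sheep), all 3 with a limma adjusted p of 1.00. None of the 4 is therefore called. For SLC17A1 r was 0.93 among well-fed sheep (exact permutation p = 0.0011, n = 8) and 0.35 among underfed sheep (exact permutation p = 0.40, n = 8). The difference between its slopes had an adjusted p of 0.23 (limma, interaction of diet and testis weight).

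No gene passed the test of a different relation to testis weight in the 2 diets, and the share of all genes called was 0.0% (limma, adjusted p under 0.1). At an unadjusted p under 0.05 there were 8 of the 41 genes, against 21.5% of all genes tested. SLC27A1 (difference of slopes 1.38 ± 0.46 log2 per SD of testis weight, limma adjusted p = 0.20) and SLC7A5 (1.58 ± 0.54, limma adjusted p = 0.20) were the first of these. For SLC7A5 r with testis weight was -0.74 among well-fed and 0.26 among underfed sheep, and for SLC27A1 it was -0.82 and 0.05. This result depended on single sheep: 15 of the 41 genes and 3219 of all 11148 genes passed without high diet replicate 2, and 3 of the 41 (SLC27A1, SLC7A5 and SLC24A1) and 835 of all genes without low diet replicate 1.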

How the data were processed

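Total RNA of the right testis of 8 well-fed and 8 underfed male sheep was sequenced as paired-end mRNA libraries, 1 per sheep. The authors demultiplexed the reads with CASAVA 1.8, aligned them to OAR 3.1 with TopHat2 2.0.10, counted them on Ensembl genes with HTSeq, and deposited CPM, in which each gene's reads are scaled to the total of the library. Per the labels the library kit was stranded, but the strand setting of the counting and the treatment of reads that match several genes are not given in the sources used here. All values came out as whole reads within 0.1 read, so the depth of each library is known (7646547 to 18230076 reads), and p-values measure the spread between sheep.

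CPM was divided by TMM factors (edgeR 4.0.16) and compared as log2(CPM + 1) with limma 3.58.1 (trend on) in R 4.3.3, with genes kept where 8 or more libraries exceeded 5 CPM and with Benjamini-Hochberg adjustment over all genes. A difference on this scale understates the change of low genes. The criteria of adjusted p and fold are the study's, but its test was edgeR and not limma. Count tests on the recovered reads, with edgeR and DESeq2 1.42.0, were alternatives only. Trait values came from the study's phenotype table, scaled to SDs within diets, and the columns of fold changes and p-values in the study's tables were not used. Correlations were tested with 100000 permutations within diets, and exactly within a diet (Python 3.11.15, numpy 2.4.6, pandas 2.3.3, scipy 1.17.1, matplotlib 3.10.9). The fits were tested on simulated data.

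The genes, classes, pairs and marker lists were chosen with earlier results of these data known. Every gene may be named. The 5 largest differences in each direction and the members of the pairs are given in full, and other genes by class. The first component, its relations and the counts of extreme sheep were added after the data were seen. Of 63 cell type markers, 22 had an identifier, and none of those for endothelium (5 listed) and spermatogonia (6) did. STAR, the 1 Leydig marker of 7, was at 16.0 to 73.0 CPM in well-fed and 6.71 to 27.8 in underfed sheep. PTPRC, the 1 leukocyte marker of 5, was at 10.9 to 33.6 and 19.3 to 59.4. Alternatives covered scaling, test, filter, pseudocount, thresholds, the replicate block and leaving out each sheep. Sheep of the same number did not deviate together, so the block is an alternative only. The genes most like SLC3A2 are not reported here.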

Additional observations from a re-analysis of the deposited data

Results flagged for a closer look

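In each diet group, the gap between the highest or lowest sheep and its neighbour was compared with the range of the group for each of the 41 genes. CPM was not divided by TMM factors here, so the flags hold for unscaled values only. Of the 82 groups, 5 held a sheep that stood apart by Dixon's criterion at the 95% level, which chance alone gives for about 1 in 20 groups. SLC7A8 was at 32.9 CPM in low diet replicate 6 and at most 21.0 in the other underfed sheep, a gap of 0.605 of the range. SLC7A2 was at 74.2 CPM in the same sheep and at most 51.7 in the others, a gap of 0.546. The lysosomal transporter SLC38A9 was at 176 CPM in low diet replicate 1 and at most 105 in the other underfed sheep, a gap of 0.543, which placed this sheep near the well-fed median of 165. Among well-fed sheep, SLC38A6 was at 21.6 CPM in high diet replicate 7 and at least 27.9 in the others, a gap of 0.565. SLC14A1 was at 4.28 CPM in high diet replicate 8, whose TMM factor was 0.739, and at least 7.76 in the others, a gap of 0.553. No difference between diets of these genes changed sign without any 1 sheep.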

How the results depend on the processing

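No difference between diets of the 41 genes changed sign under any alternative. Scaling by library totals moved the median of all genes from 0.01 to 0.17 (log2) and that of the 41 genes from 0.74 to 0.91, with 36 of them and 2018 of all 11148 genes past both criteria. Leaving out each sheep gave between 21 and 37 genes (21 without low diet replicate 6, where 692 of 11148 genes passed). With an adjusted p under 0.05 there were 24, and over all genes 837 in place of 1808. For the interaction with testis weight it gave between 0 and 15 genes (15, and 3219 of all genes, without high diet replicate 2, and 3, and 835 of all genes, without low diet replicate 1). For the 6 traits the count was 0 in every fit.

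Replicate numbers did not pair the sheep (mean r of deviations -0.15 for the same number and 0.02 for different numbers, 2 of 8 pairs above 0.1, and 1 sheep most like its own number). With the replicate block, 27 of the 41 genes and 1067 of all genes met both criteria, and 4 pairs no longer passed: SLC3A2 and SLC7A8 (r = 0.66, adjusted permutation p = 0.13), SLC25A4 and SLC25A6 (0.49, p = 0.26), SLC41A1 and SLC41A3 (0.61, p = 0.16) and SLC4A2 and SLC4A5 (0.70, p = 0.11). On library totals SLC27A1 and SLC27A3 passed (r = 0.56, adjusted permutation p = 0.045). Leaving out each sheep, r was between -0.11 and 0.31 for SLC25A4 and SLC25A31, where it changed sign without low diet replicates 7 (-0.11) and 8 (-0.03), 0.54 and 0.68 for SLC41A1 and SLC41A3, -0.60 and -0.42 for SLC41A2 and SLC41A3, and 0.35 and 0.58 for SLC27A1 and SLC27A3. The causes were not tested. Values rest on at least 6 reads, and 3 reads are worth 0.165 to 0.392 CPM.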

Other observations

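The same lists gave symbols to 27 other transport genes, such as ATPases, ABC transporters, channels and organic anion carriers. Like the solute carrier genes, most were higher in underfed sheep, 20 of 27, all past both criteria, and 7 were lower, 5 of them past both. The share was 10.8% higher and 5.42% lower over all genes tested, but the lists were selected on this contrast. LRRC8D, a subunit of the volume-regulated anion channel, had a lowest, median and highest CPM of 15.7, 23.2 and 29.2 in well-fed sheep and of 36.1, 53.1 and 69.0 in underfed sheep. The diets did not overlap for this gene, with a difference of 0.97 ± 0.15 (log2, SE, n = 8 per diet). Among the organic anion carriers, SLCO3A1 was higher (1.37 ± 0.29), whereas SLCO6A1 (-1.22 ± 0.31), which is known from the testis, and SLCO4C1 (-0.80 ± 0.22) were lower. These examples were chosen after their values were seen.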
